A study of Pseudotsuga menziesii with 83 samples.

Results

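The features described here are 100 transcripts of Douglas-fir needles whose mean level on 6 May stood above the mean on each of 3 other spring dates. They were chosen by their own measured levels among 90662 features of a count table, of which 16435 were eligible, with a mean count of 50 or more and outside the 50 most abundant features. A level is a feature's count scaled to the library total (CPM), taken as log2(CPM + 1) where differences are given. A feature met the rule when its May mean over 11 trees lay 0.4 or more above each of the means of 10 March, 7 April and 17 June, which 403 features did, and the 100 with the largest distance between May and the next highest date were kept as members. The members' May values are therefore a description with no test. On the same terms, 802 eligible features peaked in March, 669 in April and 370 in June. These counts are by library totals and depend on the scaling. By TMM scaling and by DESeq2 size factors, taken up below, 645 and 707 features met the May rule. The other dates were not counted by these scalings, so the dates are not ranked here.

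Needles grown in the season before were taken from single trees of coastal Douglas-fir (Pseudotsuga menziesii) in a common garden in southern Oregon. Trees of the Oregon Siskiyou source (4 trees, with siblings 44 and 90 and siblings 46 and 89), of the Washington Cascades source (3 trees, with siblings 05 and 39, and tree 08) and of the Washington Coast source (4 trees, with siblings 10 and 69 and siblings 12 and 68) were each sampled on all 4 dates, which gave 44 libraries. They carried no treatment and differed in seed source, family, date and recorded bud state. In March all 11 trees were recorded before budbreak, in April trees 44, 46 and 89 were past it, in May all but tree 10, and in June all. Tree 38, a Cascades tree and sibling of tree 08, was left out of the choice and serves as a held-out tree.

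Douglas-fir keeps its needles for several years. In spring the older needles leave winter hardiness, regain photosynthesis and supply the buds and new shoots with carbon and nitrogen, so a needle cohort passes through several states within a few weeks. The count table names its features by number only, with no gene name, sequence or place in a genome. Roles of the members, and whether a member comes from the tree or from organisms that live on its needles, are therefore not given here, and needle markers could not be looked up.

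Library totals in the deposited table ran from 11293394 to 11302021 counts, so that 1 count equalled 0.0885 CPM. How the totals came to be nearly equal is not described, and they do not give the depth of sequencing. The May libraries held 44546 to 47973 features with a count, against 44380 to 54639 in March, 48244 to 55555 in April and 44844 to 51024 in June. The 50 most abundant features took a median of 30.0% of the counts in May, against 19.7% in March, 20.1% in April and 36.3% in June, and their part in the members' levels was not tested beyond the scaling given next. TMM scaling, which adjusts for such shifts in composition, moved the median difference of May from the mean of the other dates over all eligible features from -0.09 to 0.05, a shift of 0.14. With it all 100 members lay 0.4 or more above every other date (median 0.94, against 0.82 by library totals), among 645 of the 16435 eligible features. This count reuses the contrast that chose the members, whose smallest distance by library totals was already 0.66. Each date was sequenced in lanes of its own, so date and lane cannot be told apart.

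By library totals the members were low in March, slightly higher in April, high in May and lower again in June. The median of the members' mean levels was 11.3 CPM in March, 14.3 CPM in April, 36.9 CPM in May and 15.4 CPM in June. The May mean in CPM was 1.31 to 3.35 times the highest other date mean, with a median of 1.79 times. April was the next highest date for 50 members, June for 46 and March for 4. The June mean lay within 0.4 of the March mean for 62 members, 0.4 or more above it for 34 and 0.4 or more below it for 4. The members' median of June minus March was 0.25, against -0.24 over all eligible features. This difference depends on the scaling. Over all eligible features TMM scaling moved May minus March by a median of 0.23 and May minus June by -0.05. June thus stands higher against March by TMM scaling than by library totals.

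**Figure D1:**
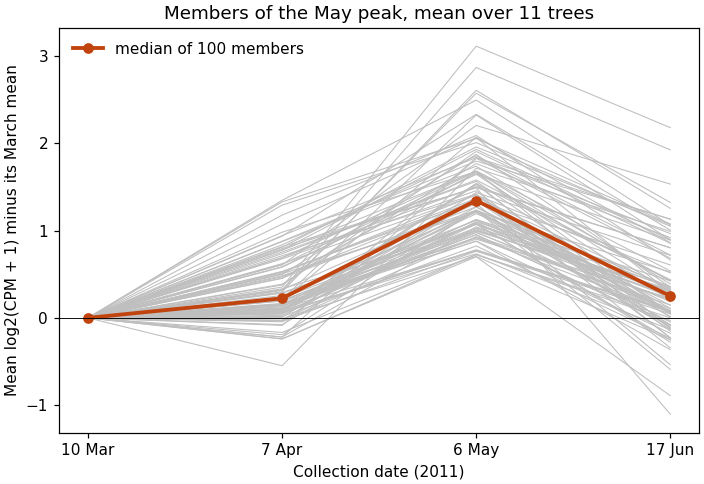
Mean log2(CPM + 1) over 11 trees on each date minus the March mean (vertical axis), by collection date at even spacing (horizontal axis); grey lines are the 100 members and the red line their median. The lines meet at 0 in March, are highest in May by choice of the members, and spread widely in June.

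The leading member by the choice was gene24690, with a May mean 1.47 above its next highest date. In May it measured 18.9 CPM in tree 44, 14.3 in tree 90, 59.5 in tree 46, 77.8 in tree 89, 185 in tree 05, 16.4 in tree 39, 67.0 in tree 08, 63.5 in tree 10, 24.5 in tree 69, 17.0 in tree 12 and 6.29 in tree 68. The lowest, median and highest libraries were 3.45, 8.50 and 81.7 CPM in March, 3.28, 9.38 and 65.2 CPM in April, and 0.974, 9.21 and 88.2 CPM in June. The May level was thus highest in trees 05, 89, 08, 10 and 46. Of these, tree 08 was higher in March than in May and tree 89 was higher in June, and the dates overlapped widely. May was the highest date in only 6 of the 11 trees.

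The member in rank 2, gene21385, had nearly the same pattern over the libraries. Its May levels were 35.3, 29.6, 71.7 and 67.8 CPM in Oregon trees 44, 90, 46 and 89, then 206, 32.1 and 154 CPM in Cascades trees 05, 39 and 08, and 82.4, 24.2, 24.1 and 9.30 CPM in Coast trees 10, 69, 12 and 68. The medians of the other dates were 13.5 CPM in March, 12.8 CPM in April and 15.0 CPM in June. Tree 68 stayed between 4.78 and 11.4 CPM on all dates and tree 89 was higher in June, at 110 CPM, than in May. Over the 44 libraries the log2 levels of gene24690 and gene21385 had a Pearson correlation of 0.956, a description over libraries that share trees.

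The next members showed May levels well above March in most trees. For gene38759 the lowest, median and highest libraries were 1.42, 5.75 and 85.2 CPM in March, 1.77, 7.61 and 63.5 CPM in April, 14.2, 33.7 and 117 CPM in May, and 3.36, 14.5 and 48.9 CPM in June. May was its highest date in 10 trees, and tree 08, high from March on, was the exception. For gene18900, a rarer feature, the 3 values were 0.443, 2.21 and 5.58 CPM in March, 0.974, 3.19 and 16.0 CPM in April, and 3.72, 11.1 and 57.3 CPM in May. In June it ran from 0 CPM in tree 12 to 42.8 CPM in tree 89, with a median of 3.19 CPM, and a library with 0 counts allows a level of up to 0.266 CPM. May was the highest date of gene18900 in 10 trees.

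Among the 10 leading members, gene17835, gene16133, gene59543 and gene27272 had May as the highest date in all 11 trees. For gene17835 the lowest, median and highest May libraries were 9.73, 34.1 and 214 CPM, the last in tree 89, against medians of 6.02 CPM in March, 5.05 CPM in April and 17.2 CPM in June. Its June mean remained 1.25 above its March mean on the log2 scale. The May values of gene16133 were 20.2, 84.5 and 134 CPM, against medians of 9.03, 12.2 and 31.0 CPM in March, April and June. Its level was lowest in tree 08 on all dates but March, when tree 69 was lowest, and 7 of its 11 May libraries lay above every library of the other dates.

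The levels of gene59543 varied least between trees among the 10. In May it measured 161, 93.7, 97.7 and 39.2 CPM in trees 44, 90, 46 and 89, then 87.0, 97.9 and 71.4 CPM in trees 05, 39 and 08, and 129, 98.6, 145 and 141 CPM in trees 10, 69, 12 and 68. The 33 other libraries lay between 11.7 and 66.8 CPM. Thus 10 of 11 May libraries exceeded every library of another date, and tree 89, low on all dates, was the exception. The per-tree difference of May from the mean of the other dates was 1.33 ± 0.384 (SD, n = 11 trees). The member in rank 11, gene58375, followed it closely, with a Pearson correlation of 0.953 over the 44 libraries.

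For gene27272 the lowest, median and highest libraries were 10.7, 57.9 and 329 CPM in March, 10.5, 83.2 and 208 CPM in April, 33.3, 178 and 339 CPM in May, and 19.1, 43.6 and 283 CPM in June. Its levels differed more between trees than between dates, with tree 08 high and tree 39 low on most dates, and the difference within trees was 1.34 ± 0.586 (SD, n = 11). The remaining members of the 10, gene58957 and gene30005, had May as the highest date in 8 trees each. May medians were 27.6 CPM for gene58957 and 27.4 CPM for gene30005, against 8.14 and 10.1 CPM in April. Tree 46 held 63.9 CPM of gene58957 in April and 61.8 CPM in May, and tree 05 held more gene30005 in April, at 120 CPM, than in May, at 76.1 CPM.

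**Figure D2:**
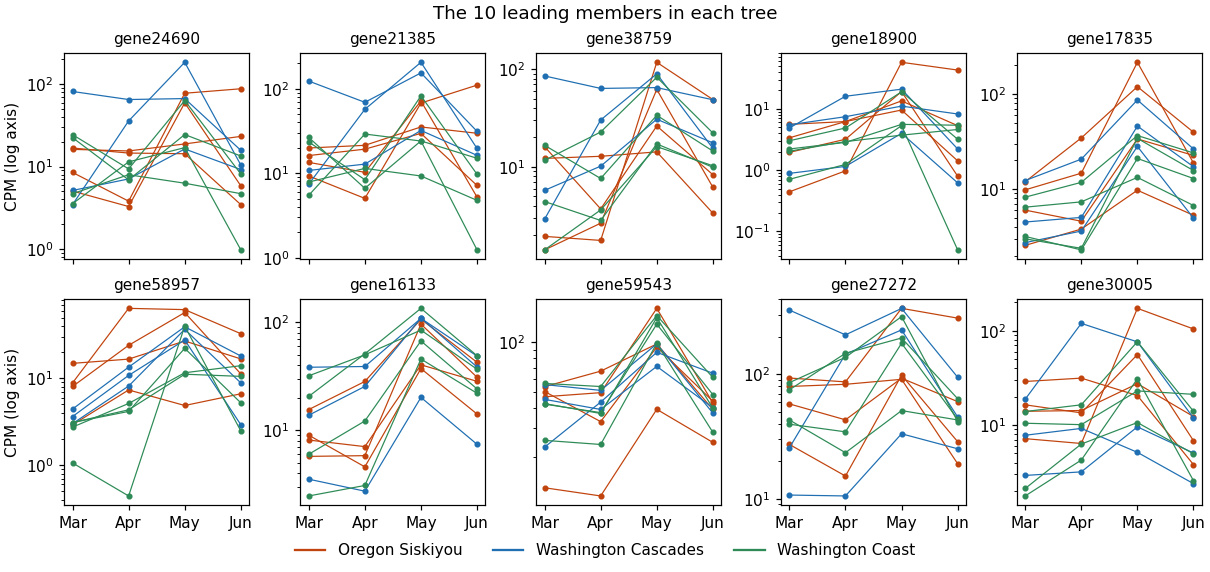
CPM on a log axis (vertical) by collection month (horizontal) for the 10 leading members, 1 line per tree coloured by seed source, with 1 library at 0 drawn at 0.05 CPM. In gene59543 and gene16133 all lines turn up to May, while in gene24690, gene21385 and gene30005 several trees are as high on another date.

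Of the 5 most abundant members, 4 had May as the highest date in 9 or 10 trees, and gene18357 in 6. The highest mean level, 634 CPM, belonged to gene12066, with 466 ± 118 CPM in March, 476 ± 111 CPM in April, 1003 ± 234 CPM in May and 589 ± 112 CPM in June (SD, n = 11). Its May libraries ran from 557 CPM in tree 89 to 1302 CPM in tree 10, and 9 of them lay above all 33 libraries of the other dates. May was the highest date in 10 trees, all but tree 89, with 655 CPM in June. For gene11607 the means were 350 ± 93.6, 353 ± 90.4, 624 ± 178 and 292 ± 48.9 CPM in March, April, May and June, and tree 05, with 464 CPM in May and 469 CPM in April, was the 1 tree without a May maximum.

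The May mean of gene6697 was 425 ± 132 CPM, against 227 ± 70.6 CPM in March, 262 ± 83.1 CPM in April and 255 ± 37.1 CPM in June. Its per-tree difference of May from the other dates, 0.76 ± 0.196 (SD, n = 11), had the lowest spread of the 100 members. Tree 10 was the lowest tree in March, April and May, at 111, 99.5 and 206 CPM, and the 1 tree in which June, at 230 CPM, lay above May. For gene13549 the May mean was 394 ± 114 CPM, against 225 ± 52.3, 253 ± 98.7 and 243 ± 79.5 CPM in March, April and June. May was its highest date in 9 trees, and trees 05 and 69 were the exceptions.

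A further abundant member, gene18357, owed its mean of 397 CPM to a pair of Cascades trees. Tree 08 held 2327, 3074, 3179 and 640 CPM in March, April, May and June, and tree 05 held 60.7, 480, 2888 and 522 CPM. The 9 other trees ran from 30.2 to 618 CPM in May and from 2.92 to 273 CPM in April. In the Oregon trees the May level was 30.2 CPM in tree 44, 62.5 CPM in tree 90, 242 CPM in tree 46 and 97.5 CPM in tree 89. May was the highest date in 6 trees, and the per-tree difference was 1.49 ± 1.76 (SD, n = 11), larger in spread than in mean.

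Members differed in how evenly the trees shared the May peak. May was the highest date in all 11 trees for 11 members, in 9 or 10 trees for 41, in 7 or 8 for 31 and in 3 to 6 for 17. Among all eligible features 0.243% had May highest in all 11 trees, a share set in part by the contrast that chose the members. No member, and 0% of the eligible features, had its lowest May library above the highest library of the other dates. The SD over trees of the May difference was 0.780 for the median member and 0.355 for the median eligible feature. Within March the median SD of the log2 level was 0.560 for the members with May highest in all trees. It was 1.15 for those with May highest in 3 to 6 trees. March levels enter the count of trees with May highest, so these SDs are a description only. The 2 groups also differed in abundance, with a median of the mean levels of 37.3 and 12.0 CPM.

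The 17 uneven members differed in which trees carried the peak, though trees 05 and 46 had the highest medians. Their median difference of May from the other dates was 3.23 in tree 05, 2.96 in tree 46, 2.18 in tree 10, 1.59 in tree 89 and 1.53 in tree 12. It was 0.87 in tree 39, 0.51 in tree 90, 0.41 in tree 08, 0.27 in tree 68, -0.19 in tree 69 and -0.25 in tree 44. Single members departed from these medians, such as gene15282, with -0.82 in tree 46 and 3.55 in tree 39, and gene19638, with 1.74 in tree 44 and 0.31 in tree 46. For the 11 even members the same medians stayed between 0.68 in tree 69 and 1.33 in tree 12. Siblings were not always alike in the uneven group, since tree 05 was high and its sibling 39 was not, as with trees 10 and 69, whereas siblings 46 and 89 were both high.

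The member with the fewest May maxima was gene32941, which had them in 3 trees. In May it measured 877 CPM in tree 05, 196 in tree 46, 183 in tree 89, 180 in tree 08 and 72.8 in tree 10, and 7.70 to 47.8 CPM in the 6 other trees. In April trees 08 and 44 were highest, at 411 and 224 CPM, and the April median of 53.1 CPM lay above the May median of 47.8 CPM. The choice by mean log2 levels thus rested on a few trees here: without tree 89 its May mean was only 0.18 above the next date. Rank 71, gene31311, with May highest in 4 trees, ran in parallel with a Pearson correlation of 0.992 over the 44 libraries, and stood 0.15 above the next date without tree 89.

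Also with 4 trees, gene17668 held 48.8 and 49.4 CPM in May in trees 05 and 08 and 2.39 to 27.2 CPM in the others, and gene47794 held 110 CPM in tree 05 and 5.13 to 30.9 CPM in the others. Both are named since they tie for the fewest trees with gene31311. Leaving out 1 tree at a time, all 100 members kept May as the highest date mean, and 96 stayed 0.4 or more above the next. The 4 that did not are named after their values were seen. Without tree 46, gene32941 stood at 0.26, gene31311 at 0.32 and gene43736 at 0.38. Without tree 89, gene32941 stood at 0.18, gene31311 at 0.15 and gene15282 at 0.33, and without tree 05, gene43736 stood at 0.38.

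**Figure D3:**
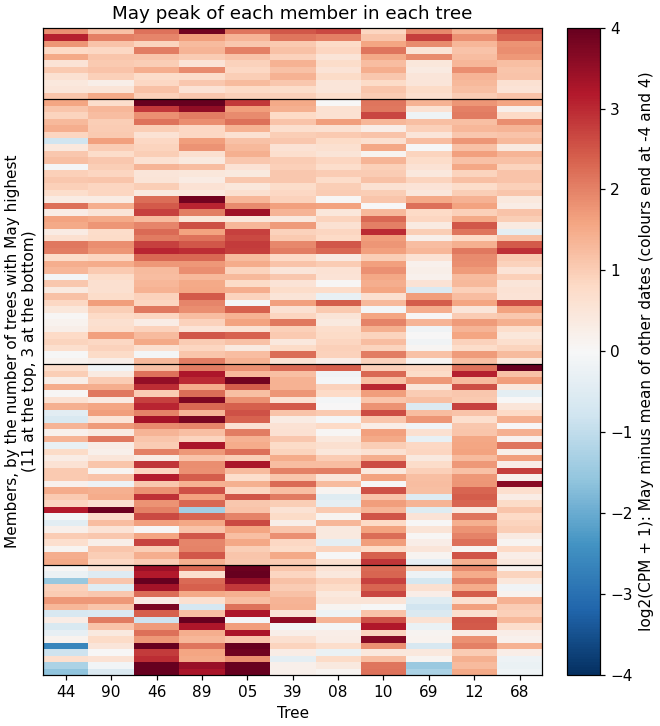
Difference of May from the mean of March, April and June on the log2(CPM + 1) scale (colour) for each member (rows, ordered by the number of trees with May highest, black lines at the limits of the 4 groups) and tree (columns). The 11 rows at the top are above 0 in every tree, in shades that differ, as in gene17835, from 0.87 in tree 10 to 3.85 in tree 89. In the 17 rows at the bottom trees 46, 05 and 10 are deep red and trees 44 and 69 pale or blue in most rows, with exceptions such as gene15282 and gene19638.

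The members in ranks 13, 48 and 65 had the lowest mean CPM over March, April and June. These were gene41068, gene54819 and gene10782. In May gene41068 measured 62.2 CPM in tree 89 and 1.68 to 11.5 CPM in the others, against medians of 1.33 CPM in March, 1.50 CPM in April and 1.59 CPM in June. The levels of gene54819 ran from 0 to 61.1 CPM in May, the highest in tree 10, and 8 of its 44 libraries held no count. Trees 44, 39, 08 and 69 stayed at or under 0.0885 CPM in both April and May, so that gene54819 was at or near the floor of detection there on these dates. It held 29 counts in tree 44 in March and 10 counts in tree 69 in June. By contrast gene10782 was present in every library, with 3.01 to 28.9 CPM in May (median 7.61 CPM) and medians of 2.04, 4.07 and 4.25 CPM in March, April and June.

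Several members had nearly the same profile as another. Of the 4950 pairs of members, 17 had a Pearson correlation of 0.9 or more over the 44 libraries, and they took in 29 members. Besides the pairs above, gene51363 and gene23360 (0.983), gene50140 and gene52813 (0.969) and gene27272 and gene73024 (0.965) were the closest. Only 1 pair of members had feature numbers within 10 of each other. Neither count was made over pairs of all eligible features, and the May rise that chose the members enters these correlations. Over the 11 trees the May differences of a pair of members correlated at 0.24 on average, against 0.18 over all eligible features. Features of closely similar sequence may share reads in such a table, and without sequences this was not tested.

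The limit of the list fell in a dense range. The last member, gene24905, had a May mean 0.66 above April, with mean levels of 3.44, 4.60, 8.05 and 4.30 CPM in March, April, May and June. The first feature outside, gene39271, also had a distance of 0.66, from June, with 4.35, 7.49, 19.6 and 8.91 CPM. The last feature to meet the 0.4 rule, in rank 403, was gene13078, with 44.4, 45.4, 64.5 and 31.6 CPM.

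Trees differed in the strength of the peak over the whole list. The median member's difference of May from the other dates was 1.71 in tree 89, 1.68 in tree 46, 1.46 in tree 10, 1.43 in tree 12, 1.39 in tree 05, 1.02 in tree 39, 0.94 in tree 90, 0.89 in tree 68, 0.72 in tree 44, 0.63 in tree 08 and 0.54 in tree 69. It was above 0 in all 11 trees, and 80 to 100 members per tree lay above the mean of their other dates. Tree 10, the 1 tree recorded before budbreak in May, held rank 3 in this order. The median of all eligible features moved along with it, from -0.44 in tree 69 and -0.24 in tree 68 to 0.10 in tree 10 and 0.13 in tree 89, and the members' distance above it ran from 0.84 in tree 08 to 1.75 in tree 46. By TMM scaling the members' medians ran from 0.90 in tree 08 to 1.79 in tree 46 and the medians of the eligible features from 0.01 to 0.08. Tree 69, lowest by library totals, then stood at 1.07.

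**Figure D4:**
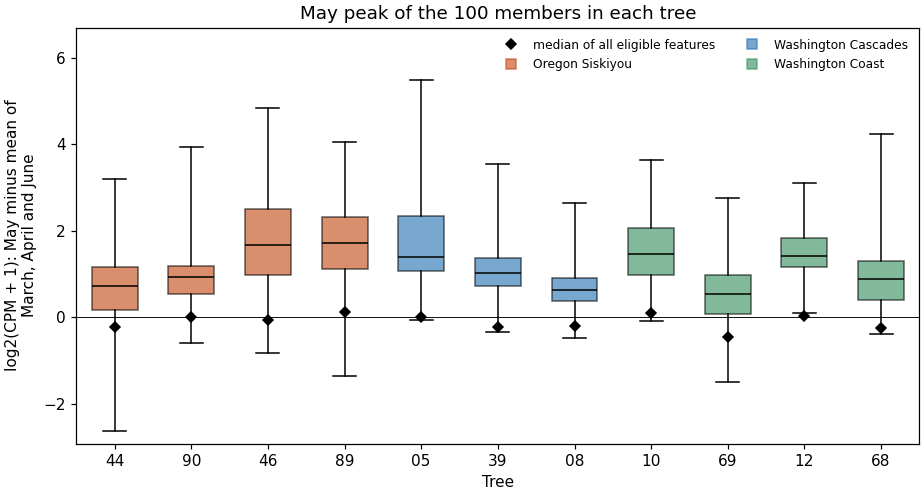
Difference of May from the mean of March, April and June on the log2(CPM + 1) scale (vertical axis) in each tree (horizontal axis, coloured by seed source); boxes give the median and quartiles of the 100 members, whiskers the lowest and highest member, and black diamonds the median of all eligible features. Every box lies above 0 and above its diamond, highest in trees 46 and 89.

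The held-out tree allowed the April to May step to be read in a tree that had not chosen the members. In tree 38, 97 of 100 members were higher in May than in April, against 44.8% of the eligible features, and 92 of 100 were higher by 0.4 or more, against 20.2%. The median difference was 1.08, against -0.07 over all eligible features. In the 11 trees of the choice the same median ran from 0.45 in tree 90 to 2.53 in tree 89, and 8 of them lay below tree 38. With 1 tree there is no replicate error, and no test was made. The April and May libraries of tree 38 were run in lanes shared with trees of the choice. Its April library was on flowcell fc1022 and its May library on flowcell fc1025. Date, lane and flowcell therefore cannot be told apart in tree 38.

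Named members followed in tree 38 with different sizes. From April to May gene24690 went from 3.90 to 47.7 CPM, gene21385 from 7.17 to 52.0 CPM, gene38759 from 23.6 to 95.0 CPM and gene27272 from 29.3 to 179 CPM. Relative steps were smaller in gene59543, with 67.9 and 117 CPM, gene12066, with 341 and 689 CPM, and gene11607, with 219 and 456 CPM. In tree 38 gene18900 was rare, at 0.797 and 1.77 CPM. The 3 members not higher in May were gene10880, at 27.5 and 19.7 CPM, gene49436, at 8.32 and 7.88 CPM, and gene27434, at 2.57 CPM in both. All 11 members with May highest in every tree were higher in tree 38 too, as were 16 of the 17 uneven ones.

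Another library of tree 38 is labelled June, while the sampling table of the study lists a March and no June library for that tree, so its date is uncertain. May exceeded it for 88 of 100 members, against 52.6% of the eligible features. For gene59543 it held 58.1 CPM, for gene12066 531 CPM and for gene24690 4.69 CPM, in each case below May.

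**Figure D5:**
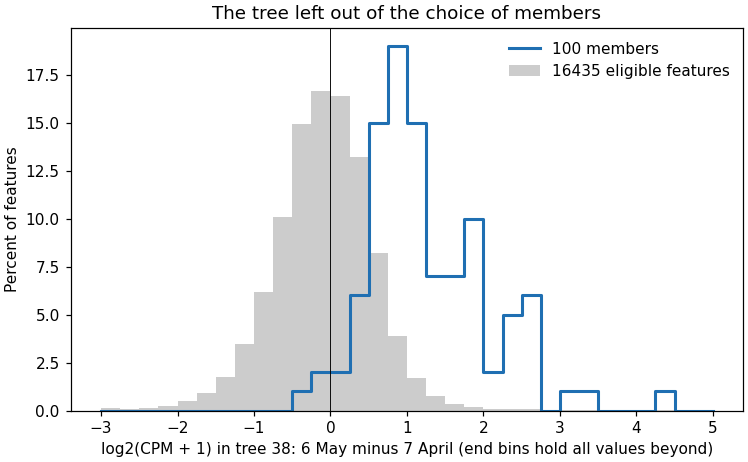
Percent of features (vertical axis) by the difference of 6 May from 7 April in tree 38 on the log2(CPM + 1) scale (horizontal axis, bins of 0.25); grey bars are all 16435 eligible features and the blue line the 100 members. The grey bars centre near 0, and 97 of 100 members lie above 0.

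Whether the peak differed between seed sources, a contrast the rule did not use, was tested for all members with edgeR's quasi-likelihood test on May minus the mean of the other dates. The main fit had no term for the tree, although trees pair the libraries. No member passed at an adjusted p of 0.01, nor did any of the 29189 features tested (0%). At an unadjusted p of 0.05 there were 0 members and 653 features, and DESeq2 called 0 features. With the tree as a block, edgeR called 1 feature, which was no member, and 1843 features and 4 members had an unadjusted p of 0.05 or less. The fitted peak on the log2 scale had a median over the members of 1.36 in the Oregon trees, 1.35 in the Cascades trees and 1.46 in the Coast trees. The smallest unadjusted p, 0.099, belonged to gene10880, with fitted peaks of 0.44, 1.38 and 1.42 (adjusted p = 1.00). In Oregon trees 44 and 90 its June level, 63.0 and 72.6 CPM, was above May, at 54.0 and 53.1 CPM.

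By source means, May was the highest date for 97 members in the Oregon trees, 92 in the Cascades trees and 97 in the Coast trees, and for 86 in all 3 sources. It lay 0.4 or more above the next date for 87, 75 and 89 members. These counts reuse the contrast of the choice, and the absence of a call does not show that the sources peak alike, since each had 3 or 4 trees and uneven members spread widely.

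The level over all dates was also compared between sources, with the counts of 4 dates added up per tree. The edgeR test called no member and 0% of 29189 features at an adjusted p of 0.01. At an unadjusted p of 0.05 it gave 14 of the 100 members, against 9.77% of all features. DESeq2 called 5 members, against 0.769% of features. These were gene18357, gene10880, gene11529, gene19638 and gene43736, with adjusted p from 1.48e-05 to 0.00975 by DESeq2 and from 0.273 to 0.383 by edgeR.

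The level of gene18357 over dates was 2305 CPM in tree 08, 987 CPM in tree 05 and 181 CPM in tree 39, the 3 Cascades trees. It was 43.0 to 83.0 CPM in the Oregon trees and 26.7 to 231 CPM in the Coast trees. The fitted Cascades minus Oregon difference was 4.04 on the log2 scale, and Coast minus Oregon 1.21. In gene10880 the order was the opposite: the Oregon trees held 38.5 to 58.6 CPM, the Cascades trees 14.9 to 29.8 CPM and the Coast trees 21.7 to 36.5 CPM, with a fitted Cascades minus Oregon difference of -1.37. The Oregon trees did not overlap the others in gene10880, while in gene18357 the Cascades tree 39 lay within the Coast range. In gene43736, trees 05 and 08 held 433 and 303 CPM but tree 39 only 40.6 CPM, so that the sources overlapped.

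The peak was read in a pair of lanes in May, with 1 sibling of each family in each where both were sampled. In the 6 trees of lane 3 May was the highest date mean for 99 members and in the 5 trees of lane 4 for 95, with 97 and 82 members 0.4 or more above the next date. Of the eligible features 23.8% and 16.9% had May highest and 3.24% and 1.82% reached 0.4, and all these counts reuse the contrast that chose the members. The test of the difference between both tree sets in the May peak called no member and 0% of 29189 features with edgeR, with 0 members and 314 features at an unadjusted p of 0.05 and 0 features by DESeq2. The fitted difference, lane 3 minus lane 4, ran from -1.44 to 1.74 over the members with a median of 0.11, and its median standard error was 0.656. Lane and tree set cannot be told apart.

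March and April were sequenced on flowcells fc1022 and fc1025, each tree on a different one per date, and all May and June libraries on fc1025. Within March and April the edgeR test of fc1025 against fc1022 called no member and 0% of 30752 features, with 0 members and 233 features at an unadjusted p of 0.05, and DESeq2 called 1 feature that was no member. The members' fitted differences had a median of 0.07 (-0.48 to 0.75), with a median standard error of 0.432, and 68 of 100 were above 0, against 48.6% of all features tested. With the libraries of fc1025 alone, which left 5 trees in March and 6 other trees in April, 89 of the 100 members met the 0.4 rule. In all, 291 features met it there. This count reuses the contrast that chose the members, so it does not test the flowcell.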

How the data were processed

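Counts of reads for each numbered feature were deposited by the authors in a table of 47 columns. According to the submitters' processing notes, CASAVA 1.8 and Bowtie2 were used. Which reference and counter lie behind the deposited counts, and how their totals came to be nearly equal, is not given in the sources used here. Sequencing depth per column was not used. The labels list 36 more libraries, for building the reference, that were not used here. The members and lists were chosen with earlier results of these data known.

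The choice of members and all levels used CPM by column total and log2(CPM + 1), computed with pandas 2.3.3. Tests ran in R 4.3.3 with edgeR 4.0.16 (TMM, quasi-likelihood, Benjamini-Hochberg over all features with a median count over 5, adjusted p at most 0.01), after the study's filter and threshold. They were also tried on simulated data drawn with no tree effect, which does not cover the pairing of libraries by tree. DESeq2 1.42.0 was the other tool. The main fits of the peak, tree set and flowcell took each library as a unit, with no term for the tree. Only the level test had 1 value a tree. P-values for seed sources treat siblings as separate. Each tree gave a needle sample on every date, so trees pair the samples: deviations from the date means correlated at 0.608 on average within trees (0.278 to 0.838, over 0.1 in 66 of 66 pairs). Named are the 10 leading members, the 5 most abundant, ranks 100 and 101, members past a test's threshold, the 3 with the fewest trees peaking in May and the 3 lowest outside May. Others were named after their values were seen. Intervals for zeros cover counting error only.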

Additional observations from a re-analysis of the deposited data

Results flagged for a closer look

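The May level of gene27272 in Oregon tree 89, 339 CPM, stood far from the 3 other Oregon trees, which lay between 91.2 and 98.5 CPM. In the same tree gene27272 measured 93.5 CPM in March, 87.0 CPM in April and 283 CPM in June. It was the 1 value that stood apart in this way among 22 groups of 4 trees looked at, and chance flags about 1 group in 20.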

How the results depend on the processing

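Of the 100 members, 73 stayed among the first 100 with TMM scaling, 75 with DESeq2 size factors, 93 with a pseudocount of 0.25, 69 with no minimum count, 67 with the median over trees, 89 with tree 38 added and 72 on flowcell fc1025 alone, and 79 to 91 without 1 tree. The features that met the 0.4 rule numbered 403, but 645 with TMM scaling and 707 with DESeq2 size factors. All 100 members were among them in both, and these member counts reuse the contrast that chose them. Members with May highest in all 11 trees numbered 11 by library totals and 22 with TMM scaling. In tree 38 the members higher in May were 99 with TMM scaling and 97 with a pseudocount of 0.25. The tests between seed sources, tree sets and flowcells called 0 members under every edgeR alternative, including 0 in each fit without 1 tree, and DESeq2 called members only for the level between seed sources, 5 of them. With the tree as a replicate block (paired fit) 0 members were called in the peak, tree set and flowcell tests. At an unadjusted p of 0.05 that fit gave 4, 7 and 5 members, against 6.31%, 3.45% and 4.06% of all features tested. The unpaired main fit gave 0 members in each, against 2.24%, 1.08% and 0.76% of all features tested. The paired fit called 1 feature, no member, in the peak test. No paired fit exists for the level, which has 1 value a tree. Small differences between sources cannot be read at 3 or 4 trees a source.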
